A study of Mus musculus with 6 samples.

Results

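The 8 leukocyte adhesion genes Vcam1, Icam2, Madcam1, Selp, Selplg, Itgal, Itgb2 and Cd44 were followed in mouse retina after titanium dioxide nanoparticles had been placed in the vitreous. They were found by name: every probe that was no control spot and carried one of these gene names in the scanner files was taken, whatever its value. This gave 15 probes of 39429 on the array, and all 15 passed the filter on dim probes, so that all 8 genes were tested among 26126 genes or probe names. Male C57BL/6 mice were injected in the right eye at 8 weeks of age with a dose labelled PTC, with a dose 10 times as high (10PTC) or with PBS, and retinas were taken 7 days later. The groups were of 12 mice, with 4 retinas to a pool. There were 3 arrays per dose. On each, a treated pool labelled with Cy5 was set against PBS RNA labelled with Cy3, with no dye swap. The labels do not spell out PTC and do not say whether the PBS RNA of the arrays was the same pool.

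Leukocytes leave the blood in steps. Selectins on endothelium and platelets, such as P-selectin (Selp), bind sialylated ligands such as PSGL-1 (Selplg) and let cells roll, after which activated integrins such as LFA-1 (Itgal with Itgb2) hold them on immunoglobulin-type proteins of the vessel wall. In the retina these steps take place at vessels that carry the inner blood-retinal barrier, while resident microglia also express Itgb2 and glia can express Vcam1 and the hyaluronan receptor Cd44.

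All values are log2 ratios of treated over PBS signal, log2(Cy5/Cy3), so that 0 is the PBS level. A gene was called changed where limma's moderated test across all genes, with Benjamini-Hochberg adjustment, gave an adjusted p under 0.05. No PBS sample was hybridised against the PBS RNA, so the test of the ratio against 0 has no measure of the spread among controls by themselves, and an effect of the dye cannot be told apart from the treatment. Between 71.0% and 85.5% of the spots stood well above background on an array, and no spot was saturated. The arrays lay on 2 slides, the first with PTC replicates 1 and 2 and the second with the other 4 arrays. The tissue label fitted the markers: 10 rod photoreceptor genes summed to 820420 to 1015380 intensity units in PTC pools, 1037160 to 1085120 in 10PTC pools and 782071 to 967183 in PBS. All 12 skeletal muscle genes on the list were lower at each dose, with a median log2 ratio of -2.95 at PTC and -2.43 at 10PTC, and 4 and 3 of 5 measured red blood cell genes were lower, so signal of these tissues was higher in PBS than in either treated group. Its part in the results below was not tested.

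At PTC, 4 of the 8 adhesion genes were called against PBS. Vcam1, Cd44 and Itgb2 were higher and Itgal was lower. At 10PTC, 2 of 8 were called, Vcam1 as higher and Itgal as lower, and these were also the genes called at both doses (19.9% of all genes). Of all genes tested, 33.1% were called at PTC (16.8% higher, 16.3% lower) and 27.7% at 10PTC (14.4% higher, 13.3% lower), and with 8 genes the counts of 4 and 2 do not stand apart from these shares. The median over the 8 genes was 0.18 at PTC and 0.08 at 10PTC, against 0.00 for all genes at each dose. Vcam1, Cd44 and Itgb2 were above 0 on all 6 arrays and Itgal was below 0 on all 6, which held for 21.9% and 21.2% of all genes. These are bulk pools, in which a change in the number of cells of a type and a change in RNA per cell cannot be told apart.

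**Figure D1:**
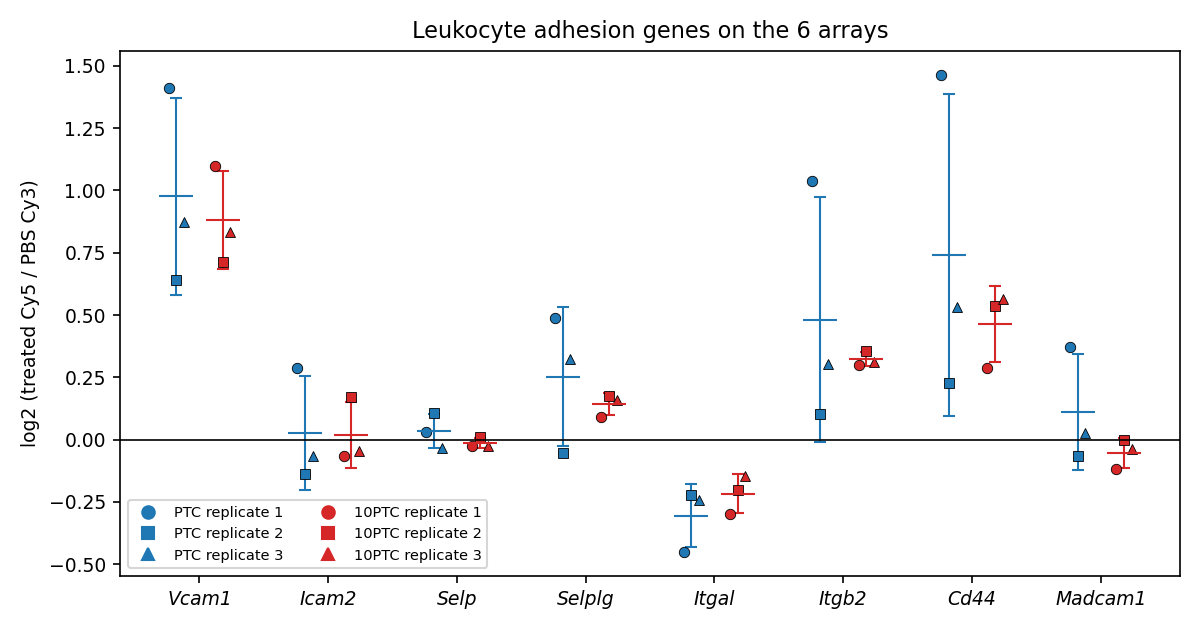
Log2 ratio of treated over PBS signal for the brightest probe of each of the 8 genes. Each symbol is 1 array, blue for PTC and red for 10PTC, with the mean as a wide bar and the SD over 3 arrays as error bars. Vcam1, Cd44 and Itgb2 lie above 0 on every array and Itgal below 0, and PTC replicate 1 is the highest array for 6 of the 8 genes.

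Vcam1 encodes the immunoglobulin-type ligand of the integrin alpha-4 beta-1 and is known to be raised on endothelium and glia by inflammatory cytokines. Its brightest probe, at chr3:115813216-115813275 (mm9, minus strand; base 3060 of the transcript onward), gave normalised intensities of 1794, 1081 and 1281 in the PTC pools, against 674, 693 and 699 in the PBS channel of the same arrays. The 10PTC pools gave 1631, 1272 and 1280, against 763, 775 and 718 in PBS. All 6 treated values stood above all 6 PBS values. As log2 ratios these were 1.41, 0.64 and 0.87 at PTC and 1.10, 0.71 and 0.84 at 10PTC. The mean was 0.98 ± 0.40 at PTC (SD, n = 3; 1.97-fold, adjusted p = 0.00319 in limma) and 0.88 ± 0.20 at 10PTC (SD, n = 3; 1.84-fold, adjusted p = 0.00567). These means lay at the 99.4th percentile of all genes at each dose. Without PTC replicate 1 the PTC mean was 0.76, with a limma adjusted p of 0.00389, and without 10PTC replicate 1 the 10PTC mean was 0.77 with 0.0539. Within the first slide the mean was 1.03 with a limma adjusted p of 0.0885, and on the second slide the 10PTC mean was 0.88 with a limma adjusted p of 0.00112. The second slide held only 1 PTC array, replicate 3, with a ratio of 0.87, and that single value is given without a test.

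A second Vcam1 probe, at chr3:115828953-115829012 and base 842 of the transcript, was dim: its PBS signal stood well above background on 3 of 6 arrays. It is printed here because the size of the Vcam1 change differs between the probes.
Vcam1 probe at base 842: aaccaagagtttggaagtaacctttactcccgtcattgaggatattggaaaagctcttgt
Its ratios were 0.64, 0.38 and 0.14 at PTC and 0.28, 0.33 and 0.13 at 10PTC, positive on every array but smaller than those of the bright probe. With every probe tested for itself (33% of 32494 probes called at PTC and 27.5% at 10PTC) it averaged 0.39 ± 0.25 at PTC (SD, n = 3; limma adjusted p = 0.0147) and 0.24 ± 0.10 at 10PTC (SD, n = 3; limma adjusted p = 0.0767). The offset of 50 intensity units that the background correction adds moves ratios of dim spots towards 0. Its part in the difference between the Vcam1 probes was not tested.

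**Figure D2:**
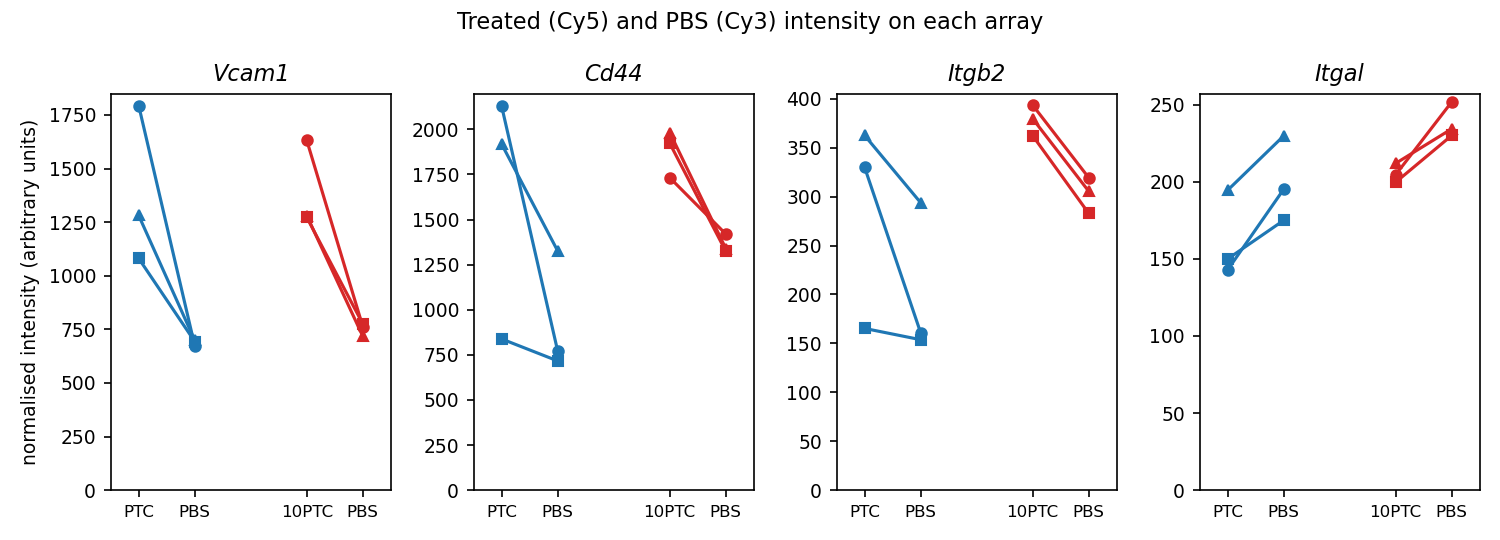
Normalised intensity, in arbitrary units from 0, of the treated pool (Cy5) and the PBS RNA (Cy3) of each array for Vcam1, Cd44, Itgb2 and Itgal. Lines join the channels of an array (circles, squares and triangles are replicates 1, 2 and 3; blue PTC, red 10PTC). For Vcam1 the PBS values stay between 674 and 775, while the PBS values of Cd44 and Itgb2 are higher on the second slide than on the first.

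Icam2, a ligand of LFA-1 that endothelium carries at rest, was not called. Its ratios were 0.29, -0.14 and -0.07 at PTC and -0.07, 0.17 and -0.05 at 10PTC, on both sides of 0 at each dose. The 95% confidence interval of the mean ran from -0.18 to 0.23 at PTC and from -0.19 to 0.23 at 10PTC, with limma adjusted p-values of 0.828 and 0.886. Its signal was well above background in both channels of all 6 arrays.

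Madcam1, the mucosal addressin that binds the integrin alpha-4 beta-7 and is best known from gut vessels, was not called either. Its brighter probe gave 0.37, -0.07 and 0.03 at PTC and -0.12, 0.00 and -0.04 at 10PTC, and only PTC replicate 1 stood clear of 0. The means were 0.11 ± 0.23 and -0.05 ± 0.06 (SD, n = 3 each; limma adjusted p = 0.324 and 0.656), and its second probe averaged 0.04 at PTC and -0.06 at 10PTC. The PBS signal of the brighter probe was unlike between arrays. Its normalised intensities were 147, 156 and 201 on the PTC arrays and 491, 450 and 289 on the 10PTC arrays. The part of this difference in the result was not tested.

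Selp showed no change that the test could tell from 0. Its ratios were 0.03, 0.11 and -0.03 at PTC and -0.03, 0.01 and -0.03 at 10PTC, with confidence intervals of -0.07 to 0.14 and -0.11 to 0.09 and limma adjusted p-values of 0.571 and 0.842. This probe is spotted 10 times per array. On the first slide its median Cy3 signal was 85.9 on the array of PTC replicate 1 and 81.1 on that of PTC replicate 2. On the second slide it was 251 on the array of PTC replicate 3 and between 239 and 241 on the 10PTC arrays. There, 1 or 2 of the 10 spots read at most 119 in Cy3 while 8 or 9 spots exceeded 200. In Cy5 the lowest spot of these arrays read 134 to 159, against medians of 312 to 379. The PBS signal over local background, before normalisation and averaged on the log2 scale, was 4.02 times as high on the second slide as on the first. This put the probe at the 98.6th percentile of the probes passing the filter (median 1.18). The normalised ratio of the array stayed near 0 on both slides. The low spots of the second slide were flagged as outliers and left out of the ratios. With outlier spots kept, Selp averaged 0.04 at PTC and -0.005 at 10PTC (limma adjusted p = 0.490 and 0.941). The cause of the signal difference between the slides was not tested.

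**Figure D3:**
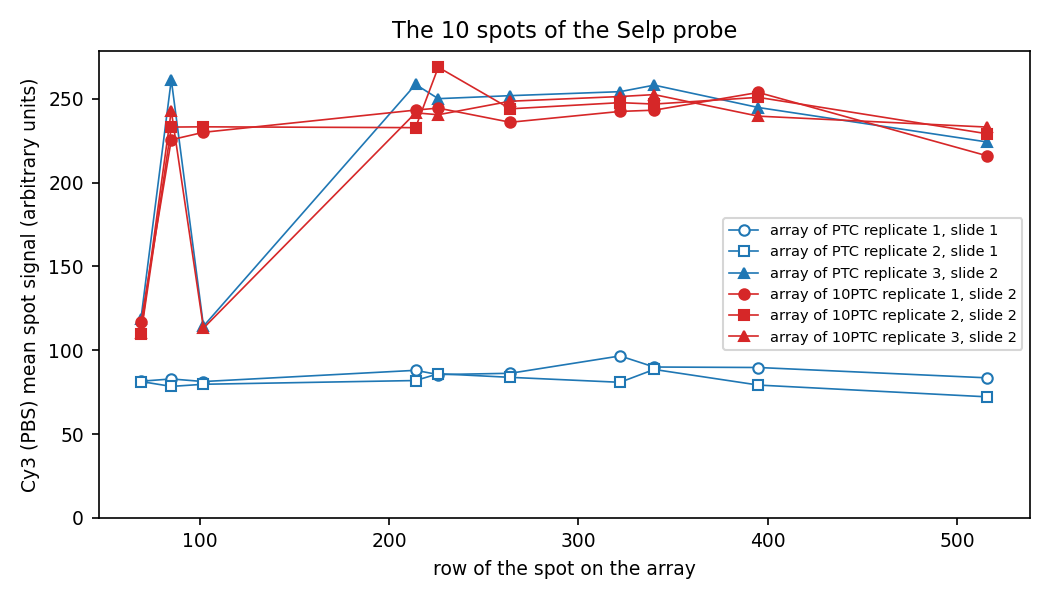
Cy3 (PBS) mean spot signal, in arbitrary units from 0, of the 10 Selp spots on each array against the row of the spot. Hollow symbols are the first slide and filled symbols the second; the first slide stays below 100, and on the second most spots exceed 200 with 1 or 2 spots per array at 110 to 119.

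Selplg, the leukocyte ligand of P-selectin, did not pass the threshold. The ratios of its bright probe were 0.49, -0.05 and 0.32 at PTC and 0.09, 0.18 and 0.16 at 10PTC. PTC replicate 2 lay below 0 and the other 5 arrays above it. The means of 0.25 ± 0.28 and 0.14 ± 0.04 (SD, n = 3 each) had limma adjusted p-values of 0.0712 and 0.281. Without PTC replicate 2 the PTC mean was 0.41 with a limma adjusted p of 0.00768. With all 6 arrays kept, Selplg also passed at PTC under median centring in place of loess (0.39, limma adjusted p = 0.0102). It passed under trended and robust moderation as well. The other Selplg probe gave 0.35, 0.11 and 0.05 at PTC and 0.08, 0.15 and 0.07 at 10PTC, above 0 on all 6 arrays. It was another probe with unlike signal on the slides: its PBS signal over local background, before normalisation, was 3.36 times as high on the second.

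Itgb2 encodes the beta-2 chain shared by LFA-1, Mac-1 and the other leukocyte integrins. Its normalised intensities were 330, 165 and 362 in the PTC pools against 161, 154 and 294 in PBS, and 393, 362 and 380 in the 10PTC pools against 319, 283 and 305 in PBS. Treated and PBS ranges overlapped across arrays, since both channels were higher on the second slide, but each treated value exceeded the PBS value of its own array. The log2 ratios were 1.04, 0.10 and 0.30 at PTC and 0.30, 0.36 and 0.31 at 10PTC. PTC replicate 1 stood far above the other 5 arrays. The mean was 0.48 ± 0.49 at PTC (SD, n = 3; 1.40-fold, limma adjusted p = 0.0462) and 0.32 ± 0.03 at 10PTC (SD, n = 3; limma adjusted p = 0.151). Without PTC replicate 1 the PTC mean was 0.20 with a limma adjusted p of 0.0499, and the unchanged 10PTC mean passed with 0.00360, because the common estimate of the spread no longer held that array. Without PTC replicate 3 it was 0.57 with 0.0841, and leaving out any 1 of the 10PTC arrays, which share its spread estimate, gave 0.0745 to 0.0764. With slide as a block the PTC mean was 0.44 and its limma adjusted p 0.105.

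Itgal, the alpha-L chain that pairs with Itgb2 in LFA-1 on lymphocytes and other leukocytes, went the other way on its brighter probe. Intensities there were 143, 150 and 195 in the PTC pools against 195, 175 and 230 in PBS, and 205, 200 and 212 in the 10PTC pools against 252, 230 and 234 in PBS. Each treated value was below the PBS value of its own array. The ratios of -0.45, -0.22 and -0.24 at PTC and -0.30, -0.20 and -0.14 at 10PTC averaged -0.30 ± 0.13 (SD, n = 3; limma adjusted p = 0.00845) and -0.22 ± 0.08 (SD, n = 3; limma adjusted p = 0.0318). The second Itgal probe starts at base 3543 of the transcript, upstream of the brighter probe at base 3639, and gave other values. Its ratios were 0.32, -0.03 and 0.05 at PTC and -0.03, -0.13 and 0.02 at 10PTC, with limma adjusted p-values of 0.239 and 0.651, and its PBS signal stood well above background on 4 of 6 arrays. With the probes of a gene averaged, Itgal was -0.09 at PTC and -0.13 at 10PTC and was not called (limma adjusted p = 0.120 and 0.0536), so the call rests on the brighter probe. The 10PTC call was lost without any 1 of its arrays, at -0.17, -0.22 and -0.25 without replicates 1, 2 and 3 (limma adjusted p = 0.185, 0.0926 and 0.0976).

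Cd44 encodes the receptor for hyaluronan and osteopontin and is carried by activated leukocytes and reactive glia. Its brightest probe, at chr2:102651398-102651457 (mm9, minus strand), gave 2128, 838 and 1918 in the PTC pools against 771, 716 and 1326 in PBS, and 1732, 1923 and 1982 in the 10PTC pools against 1420, 1324 and 1339 in PBS. Every treated pool exceeded its own PBS channel, and PTC replicate 1 did so most. The ratios were 1.46, 0.23 and 0.53 at PTC and 0.29, 0.54 and 0.57 at 10PTC. The mean was 0.74 ± 0.65 at PTC (SD, n = 3; 1.67-fold, limma adjusted p = 0.0285) and 0.46 ± 0.15 at 10PTC (SD, n = 3; 1.38-fold, limma adjusted p = 0.126). Without PTC replicate 1 the PTC mean was 0.38 and both doses passed, with limma adjusted p-values of 0.0280 and 0.00464. Without PTC replicate 3 the PTC mean was 0.85 with 0.0661, and without 10PTC replicate 2 its adjusted p was 0.0513. With slide as a block neither dose passed, with 0.0708 and 0.247. Within the first slide the PTC mean was 0.85 (limma adjusted p = 0.175), and on the second slide the 10PTC mean was 0.46 (limma adjusted p = 0.00470), beside 0.53 on the 1 PTC array there.

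The 4 Cd44 probes fell into pairs. Cd44 RNA is spliced into a standard form and into longer forms that hold variable exons. The array's annotation lists the brightest probe and the probe at base 2614 for all 3 of its RefSeq Cd44 transcripts, and the probes at bases 1777 and 1965 for only 2 of them. The stretches below show these probes; the capitals mark the stop codon that ends the reading frame in the probe at base 2614.
Cd44 probe at base 1777: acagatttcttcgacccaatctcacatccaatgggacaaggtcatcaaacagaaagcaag
Cd44 probe at base 1965: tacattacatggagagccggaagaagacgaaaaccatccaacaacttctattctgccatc
Cd44 probe at base 2614, first 48 bases: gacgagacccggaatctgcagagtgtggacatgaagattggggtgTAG
The probe over the stop codon gave 1.43, 0.32 and 0.82 at PTC and 0.47, 0.80 and 0.57 at 10PTC, above 0 on every array like the brightest probe. Tested for itself it was higher at both doses, by 0.86 ± 0.55 at PTC and 0.61 ± 0.17 at 10PTC (SD, n = 3 each; limma adjusted p = 0.0100 and 0.0375). The probe at base 1777 gave 0.13, 0.11 and 0.05 at PTC and 0.15, 0.18 and -0.12 at 10PTC. The probe at base 1965 gave 0.11, -0.05 and -0.18 at PTC and -0.07, 0.00 and -0.04 at 10PTC. Neither passed at a dose, and both were dim: their treated signal stood well above background on 4 of 6 arrays and their PBS signal on 2 and 3 of 6. No comparison of Cd44 forms is made from them.

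**Figure D4:**
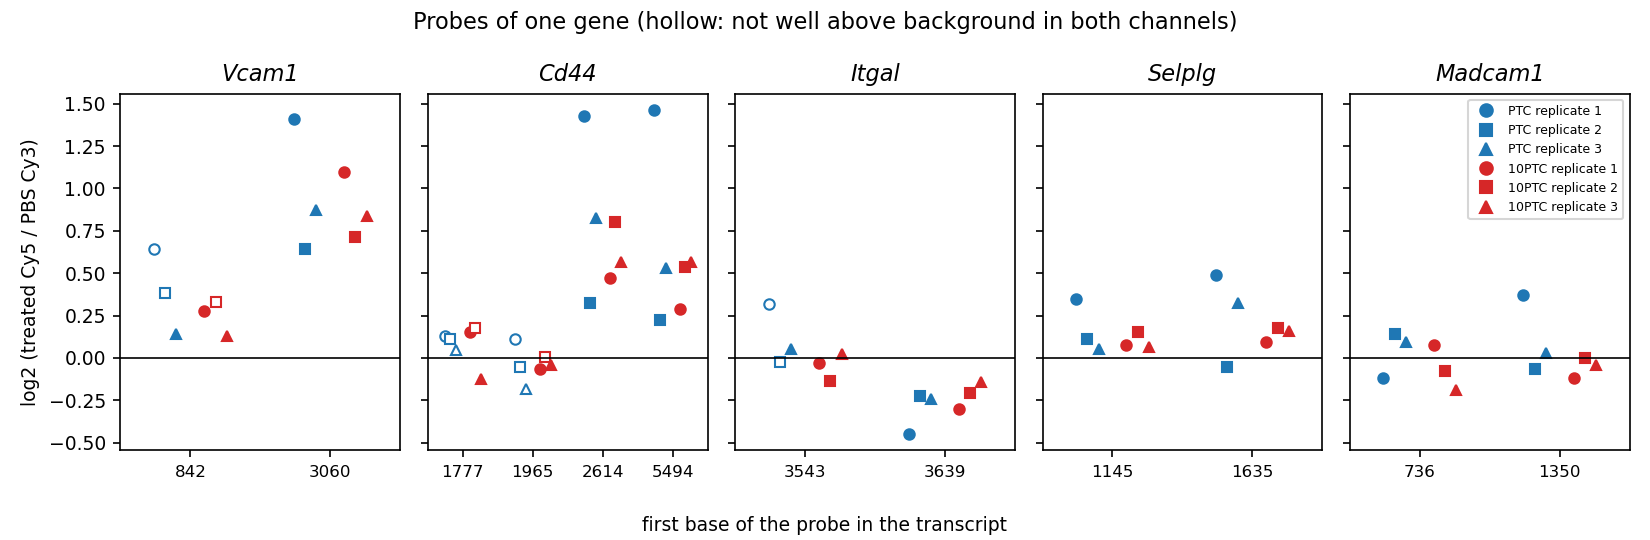
Log2 ratio of treated over PBS signal for each probe of the 5 genes with several probes, placed by the probe's first base in the transcript. Blue is PTC and red 10PTC, the symbol gives the replicate, and hollow symbols were not well above background in both channels of that array. The 2 downstream Cd44 probes lie above 0 on all arrays while the 2 upstream ones, mostly hollow, lie near 0.

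No adhesion gene differed between the doses, and no gene on the array did after adjustment (0 of 26126 in limma, 8.15% at an unadjusted p under 0.05). The 10PTC minus PTC difference was -0.09 for Vcam1, with a 95% confidence interval of -0.55 to 0.36. For Cd44 it was -0.28 (-0.95 to 0.39) and for Itgb2 -0.16 (-0.66 to 0.35). It was -0.11 for Selplg (-0.42 to 0.19) and 0.09 for Itgal (-0.10 to 0.28). These intervals hold differences as large as the Cd44 and Itgb2 effects themselves, so 3 arrays per dose do not show that the doses act alike.

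The array of PTC replicate 1 was the highest of the 6 for Vcam1, Icam2, Madcam1, Selplg, Itgb2 and Cd44, and the lowest for Itgal. Over all genes it was the highest for 24.2%, and among genes higher at PTC for 43.3%. Its distance from the mean of the other PTC arrays was 1.09 for Cd44, 0.83 for Itgb2 and 0.65 for Vcam1. The pan-leukocyte and microglia lists also had their highest median on this array. So did the Muller glia, monocyte, pericyte, T and B lymphocyte, platelet and red blood cell lists. The neutrophil, vascular endothelial, rod photoreceptor and skeletal muscle lists did not. The median over 9 of 10 measured pan-leukocyte genes was 1.27, 0.21 and 0.51 on the PTC arrays and 0.53, 0.49 and 0.46 on the 10PTC arrays, and 6 and 4 of the 9 passed as higher with none lower. Over 10 microglia genes it was 1.13, 0.49 and 0.75 at PTC and 0.52, 0.57 and 0.71 at 10PTC, with 8 of 10 higher at each dose. Summed intensities of the pan-leukocyte genes ran from 3516 to 7619 in PTC pools and from 5714 to 6166 in 10PTC pools, against 3062 to 4388 in PBS, and those of the microglia genes from 83783 to 98703, from 98862 to 111024 and, in PBS, from 74834 to 90129. Of 13 measured vascular endothelial genes, 2 were higher and 2 lower at PTC and 1 was higher at 10PTC, with medians of -0.08 and 0.12. Of 10 Muller glia genes, 6 were higher and 2 lower at each dose, and of 8 pericyte genes 1 was higher and 2 lower. Neutrophil genes passed as higher for 1 of 7 at PTC and 2 of 7 at 10PTC, monocyte genes for 1 and 0 of 6, and T and B lymphocyte genes for 1 and 0 of 9, with 1 and 2 of those 9 lower. Over all genes tested, 16.8% were called higher and 16.3% lower at PTC, and 14.4% and 13.3% at 10PTC. With so few genes, the counts of the endothelial, pericyte, neutrophil, monocyte and lymphocyte lists do not stand apart from these shares. Platelet and megakaryocyte genes, a cell type that also stores P-selectin, were lower for 4 of 7 and higher for 1 at each dose. Markers on these lists that did not pass the filter or were not on the array were Lcp2 (pan-leukocyte), Ngp, Retnlg and Cxcr2 (neutrophil), Ly6c2 and Ms4a8a (monocyte), Cd3g, Trac and Ms4a1 (lymphocyte), Gp1ba (platelet) and Erg (endothelium). What part these markers have in the Vcam1, Cd44, Itgb2 and Itgal values was not tested.

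The genes whose 6 ratios ran closest to a member, by root mean square difference over 15966 candidates, were Trim30a (0.093), Impg2 (0.104) and Ift57 (0.104) for Vcam1. For Cd44 they were Ptgs1 (0.063), Shisa5 (0.068) and Gal (0.076), and for Itgb2 Cited1 (0.043), Lxn (0.055) and Htra1 (0.060). For Selplg they were Akip1 (0.038), Rsu1 (0.039) and Mxra8 (0.041). Such likeness over 6 arrays is a description of the values only.

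The rest of the adhesion machinery moved in both directions. Read against the 33.1% and 27.7% of all genes called, the counts below are a description of each list. On the list of selectins, their ligands and modifying enzymes, which also holds the endothelial junction gene Esam, 11 of 12 genes were measured, and 4 were higher and 2 lower at PTC and 3 higher and 2 lower at 10PTC, with a median of 0.15 at each dose. Glycam1, a mucin-type ligand of L-selectin, rose by 1.45 ± 0.63 at PTC and 1.01 ± 0.11 at 10PTC (SD, n = 3 each; limma adjusted p = 0.00290 and 0.0117). Podxl, a sialomucin of vessels and podocytes, rose by 0.35 and 0.46. Cd34, the sialomucin of endothelium and progenitor cells, was lower by its bright probe at -0.97 ± 0.37 and -0.92 ± 0.30 (SD, n = 3 each), while its second probe averaged -0.16 and -0.01. Esam was lower at -0.44 and -0.26. The brightest genes here that did not pass were Cd24a (0.32 at PTC, 0.15 at 10PTC) and St3gal4 (0.15 and 0.33).

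Of 13 of 14 measured immunoglobulin-type and endothelial adhesion genes beyond the members, 3 were higher and 1 lower at PTC and 3 higher and 2 lower at 10PTC, with medians of -0.01 and 0.01. Icam1, the main inducible ligand of LFA-1, did not pass the filter on dim probes. Mcam, an adhesion protein of endothelium and pericytes, rose by 0.92 and 0.86 on its bright probe and averaged 0.24 and 0.16 on the other. Cd47, which binds thrombospondin and signals to macrophages through SIRP-alpha, rose by 0.65 ± 0.48 at PTC and 0.86 ± 0.09 at 10PTC (SD, n = 3 each), with the same means to 2 decimals on its second probe. Jam3, a junctional ligand of Mac-1, rose by 0.24 and 0.25. Icam5, an adhesion protein of neurons, passed only at 10PTC, at -0.20, and averaged -0.15 at PTC. Cd99 (-0.14 and -0.08) and Cd99l2 (-0.01 and 0.05), proteins of the last step of passage between endothelial cells, did not pass.

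Integrin subunits other than Itgal and Itgb2 were higher or not called. Of 12 of 15 measured, 5 were higher at PTC and 4 at 10PTC and none was lower, with medians of 0.24 and 0.22. Itgax, the alpha chain of dendritic cells, macrophages and activated microglia, rose by 0.70 ± 0.35 and 0.82 ± 0.13 (SD, n = 3 each; limma adjusted p = 0.00566 and 0.00464). Itgam, the Mac-1 alpha chain of microglia and myeloid cells, rose by 0.33 and 0.28 on its brightest probe. Its other probes averaged 0.33 and -0.08 at PTC and 0.10 and -0.11 at 10PTC. Itga1, a collagen receptor chain, rose by 0.36 and 0.39, with 0.09 and 0.02 on its other probe, and Itgav, a vitronectin receptor chain, rose by 0.42 at PTC and averaged 0.31 at 10PTC, where it did not pass. Itga6, a laminin receptor chain, averaged 0.29 and 0.09 and Itgb5 0.19 and 0.19, and neither passed.

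The 12 genes that switch integrins to the binding state were split, with 5 higher and 3 lower at PTC and 4 higher and 2 lower at 10PTC and medians of 0.13 and 0.12. Fermt3, the kindlin of blood cells, rose by 0.23 and 0.19, and the small GTPase gene Rap1a by 0.15 and 0.23. Rasgrp2, an exchange factor for Rap1, was lower at -0.67 and -0.49, and Tln2, the talin of brain and muscle, was lower at -0.45 and -0.42. Their second probes averaged -0.43 and -0.21 for Rasgrp2 and -0.18 and -0.13 for Tln2. The ubiquitous talin gene Tln1 averaged 0.25 and 0.20 and Rapgef1 -0.06 and -0.09 without passing. The second Tln1 probe averaged -0.05 and -0.16. Among 14 hyaluronan genes and Cd44 partners, 4 were higher and 3 lower at PTC and 2 higher and 2 lower at 10PTC, with medians of 0.11 and 0.08. Spp1, which encodes the Cd44 and integrin ligand osteopontin, rose by 2.02 ± 1.15 at PTC and 1.51 ± 0.04 at 10PTC (SD, n = 3 each; limma adjusted p = 0.00586 and 0.0191). Its ratios were 3.28, 1.03 and 1.76 at PTC and 1.47, 1.51 and 1.55 at 10PTC, again with PTC replicate 1 the highest. Tnfaip6, which crosslinks hyaluronan, passed only at 10PTC, at 0.40 on its brightest probe, which averaged 0.15 at PTC. Its other probes averaged 0.29 and 0.36 at PTC and, lower, 0.18 and 0.28 at 10PTC. The hyaluronan synthase gene Has1 was lower at -0.27 and -0.21, and the lymphatic hyaluronan receptor gene Lyve1 at -0.40 and -0.34. The Has1 probe was dim: its treated signal stood well above background on 4 of 6 arrays. Hyal2, a hyaluronidase gene, averaged -0.27 and -0.15 and Nf2, which encodes merlin, 0.08 and 0.08, and neither passed. The second Nf2 probe averaged -0.07 and -0.02.

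**Figure D5:**
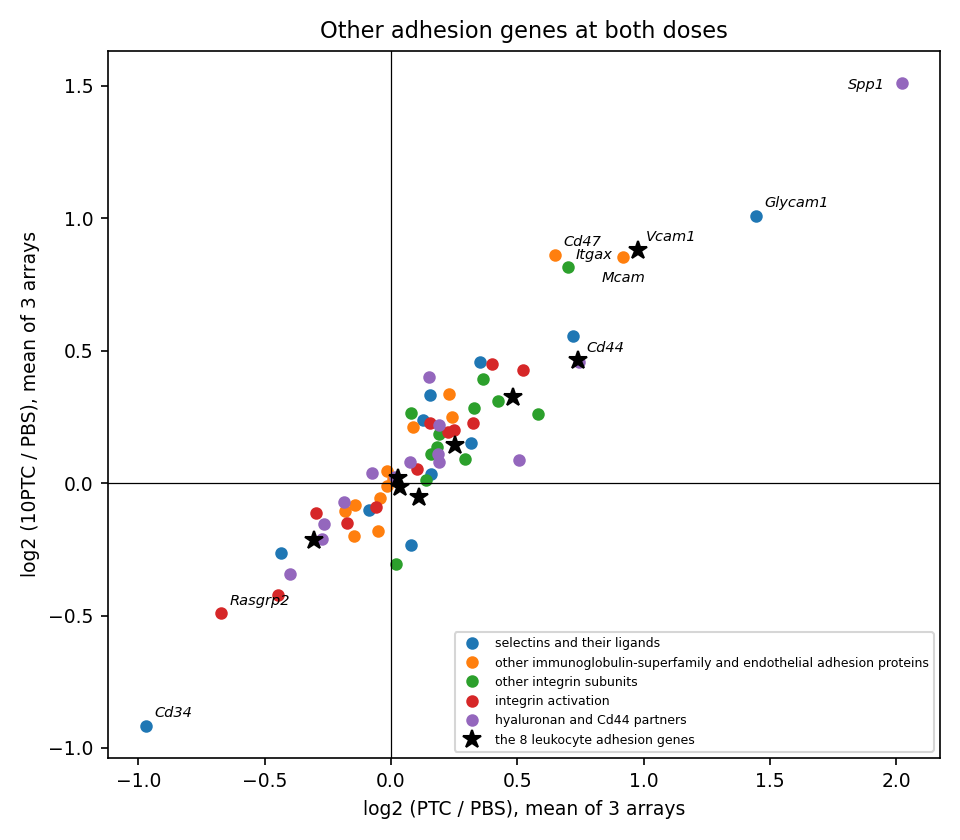
Mean log2 ratio over PBS of 3 arrays at PTC (horizontal axis) and at 10PTC (vertical axis) for the genes of the 5 adhesion lists (coloured points) and the 8 members (stars). Spp1 and Glycam1 lie at the upper right beyond Vcam1, Cd34 lies at the lower left, and most genes lie within 0.5 of 0.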

How the data were processed

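Deposited scanner files of 6 Agilent 2-colour arrays held spot intensity values per channel; per the file headers they came from Feature Extraction 10.7.3.1, while the submitters' processing notes name 9.3.2.1. The authors also deposited log2 ratio values, which had r of 0.983 to 1.00 with the scanner's log10 ratios and so run as Cy5 over Cy3; their centring stays unknown. The deposited log10 ratios served only for that check. Mean signals were corrected with normexp (offset 50) against the local background and normalised by loess within arrays in limma 3.58.1 (R 4.3.3), with control spots at weight 0. Outlier spots (185 to 274 per array) were left out and spots of a probe averaged. Kept were probes that the scanner software marked as well above background, in either channel, on 3 or more of the 6 arrays, and the brightest probe stood for a gene. Of 39429 probes, 26161 were matched to RefSeq symbols by accession, 3125 by symbol and 911 by synonym, and 9232 kept the file's name. The fit had a mean per dose, 4 residual and 3.41 prior degrees of freedom. Replicates were pools of 4 retinas. The p-values rest on the spread of the ratios between arrays, estimated jointly for both doses. That spread also holds the PBS channel, the hybridisation and the slide, so it is not that of the treated pools alone. Array number and signal over background limit the precision: median signals were 187 to 347 in Cy5 and 153 to 221 in Cy3, against backgrounds of 47 to 48 and 26 to 29. The model fit was tested on simulated data. Members, lists and tests were chosen with earlier results of these data known. Genes named outside the 8 were, per list, up to 4 called ones of smallest summed p and up to 2 of the brightest uncalled ones; cell type lists are given as counts. Same-numbered PTC and 10PTC arrays had correlations of -0.27, 0.15 and 0.20 in their deviations from the dose means, and the main fit did not pair them. With 3 arrays per dose these correlations cannot exclude a pairing. Coordinates of probes come from the array files (mm9); no annotation of that build was used, so exons and untranslated parts are not named.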

Additional observations from a re-analysis of the deposited data

How the results depend on the processing

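No member changed the direction of a called value in the 22 settings tried. Vcam1 passed at PTC in 21 of 22 (0.68 to 1.15) and at 10PTC in 19 of 21 (0.56 to 1.09); it was lost at PTC within the first slide, and at 10PTC with slide as a block (limma adjusted p = 0.0620) or without 10PTC replicate 1 (0.0539). At PTC, Itgal passed in 19 of 22 (-0.64 to -0.09), Cd44 in 14 (0.38 to 1.00), Itgb2 in 9 (0.20 to 0.71) and Selplg in 3 (0.14 to 0.41). The 22 settings at PTC include the second slide alone, where 1 PTC array has no spread of its own and gives an effect size only. That setting is counted among the passes of Vcam1 and Cd44 and adds no support to them. At 10PTC, Itgal passed in 13 of 21, Cd44 in 4 and Itgb2 and Selplg in 3 each. Icam2, Selp and Madcam1 never passed.

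Of the 8 members at PTC, 2 were called with processed signals, with the authors' deposited table and with each dose fitted alone. The replicate block (limma adjusted p = 0.0547 for Cd44 and 0.0591 for Itgb2) and slide as a block also gave 2, and the first slide alone gave 0. The second slide held 1 PTC array, whose spread was assumed to be that of the 10PTC arrays, so no count of PTC calls is given for it. Leaving out 1 array gave 2 to 5, with 2 without PTC replicate 3 and 2 without 10PTC replicate 2. At 10PTC, processed signals, offset 0, the mean over probes and the authors' table gave 1, slide as a block 0, median centring 4, and each dose alone or the second slide alone 5. Leaving out 1 array gave 0 to 4, with 4 without PTC replicate 1, 0 without 10PTC replicate 1 and 1 without 10PTC replicate 2 or 3. The causes were not tested. Whether same-numbered arrays shared more than a number is not known, and the replicate block changed no other member's call.

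Over all genes at 10PTC, processed signals gave 4417 calls, slide as a block 1007 and median centring 14630 (9641 higher, 4989 lower, against 3759 and 3467 with loess), with the median of all genes at 0.08. With the authors' values 4576 were called. Leaving out 1 array gave 1359 to 9108, with 1359 without 10PTC replicate 1 and 1566 without 10PTC replicate 3. At PTC, each dose alone gave 4608, the first slide 291 and the second, with its 1 PTC array, 1705, and leaving out 1 array gave 4999 to 7853, the lowest without PTC replicate 3. Between doses, trended and robust moderation gave 2 calls and leaving out 1 array 0 to 1, the 1 without PTC replicate 3. Dim probes limit Cd44 at bases 1777 and 1965 and, on the first slide, Selp.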
